A study of Mus musculus with 12 samples.

Results

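The 40 genes described here mark macrophages and other myeloid cells, the resident and recruited phagocytes of the heart. They were taken by gene name from the 40690 gene identifiers of a right atrial RNA-seq table, 1 identifier per gene, with a list of names that was drawn up when earlier results of these data were known. They span the receptor and growth factor on which macrophages depend, surface and Fc receptors, the chains of complement C1q, markers of resident macrophages, integrins and enzymes of the lysosome and of microbial killing.

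Macrophages of the heart take up dying cells and debris, present antigen and contact conducting cells. Most rely on the receptor Csf1r, which binds the growth factor Csf1. Resident cells are commonly recognised by Lyve1, Timd4, Folr2 and Cd163, whereas cells derived recently from blood monocytes tend to carry Ccr2 and, after differentiation, Itgax. Activating Fc receptors of the phagocyte surface bind antibody and signal through the adaptor Fcer1g, whereas Tyrobp is the adaptor of Trem2 and other receptors. The ITAM motifs of both adaptors recruit the kinase Syk.

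RNA was taken from the right atria of adult mice, 6 samples labelled control and 6 labelled iNICD, and the series title names transient activation of Notch as the subject, with sick sinus syndrome as the outcome. The iNICD mice and the littermate controls were 2 to 3 months old when both groups received doxycycline chow for 3 weeks, and the tissue was harvested with no washout. The promoter or cell type that drives the iNICD transgene, the sex of the mice and the alleles of the controls are not given in the labels used here. The labels speak of different atrial samples and not of single animals, so p-values measure the spread between these samples.

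Libraries held 12015650 to 22716190 reads assigned to genes, and values are in CPM, counts scaled to the total of those reads. Notch1 checked the labels, at 192 to 293 CPM in the controls and 3064 to 5358 CPM in iNICD, without overlap. Atrial cardiomyocyte genes checked the tissue: Nppa, the atrial natriuretic peptide, and Myl7, the atrial myosin light chain, had control medians of 6481 and 5086 CPM. Both were lower in iNICD without overlap, at medians of 2381 and 2108 CPM. Several libraries stood apart. Control 4 lay below all other controls for 12 of the 39 tested macrophage and myeloid genes and above them for 15. The same counts were not taken over all genes. Controls 4 and 6 and iNICD 4, 5 and 6 had low Xist (7.07 to 13.5 CPM), against 464 to 649 CPM in the other 7 libraries. Control 3, iNICD 3 and iNICD 5 were rich in the noncoding RNA Gm42418 (20234 to 30814 CPM, against 119 to 4790 CPM elsewhere).

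Promoter sequence is shown for the 5 genes whose windows held an ISRE or GAS core, both defined below. Any part of interferon in the levels of these genes was not tested. RefSeq promoters (GRCm38.p6) were matched by symbol for 29 of the 40 genes. The 11 others are Siglec1, Tyrobp, Csf1r, Lyve1, Nckap1l, Adgre1, Msr1, Cd86, Spi1, Cd14 and C1qa. Each motif was sought on both strands in the 250 bases before the start. The ISRE core (GAAA, any 2 bases, GAAA), a form of the element bound by interferon regulatory factors, was present for 4 of 29 genes, against 3.46% of 27025 genes. The GAS core TTCNNNGAA, bound by STAT dimers, was present for 1 of 29 (8.13% of genes), and a PU.1 core GAGGAAGT, bound by the product of Spi1, for 3 of 29 (2.79% of genes), which were Fcgr4, C1qc and Pf4. The RBPJ core GTGGGAA was in none of the 29 windows and in 6.18% of all genes. A match is a description of letters in the window and not evidence of binding. The lines below run 5′ to 3′ on the strand of the gene, and capitals mark the ISRE core on either strand, the GAS core in Fcgr1 and, as the second capital run in Fcgr4, the PU.1 core on the reverse strand. No match overlapped another.
Fcgr4 (chr1:171018826-171018925, plus strand): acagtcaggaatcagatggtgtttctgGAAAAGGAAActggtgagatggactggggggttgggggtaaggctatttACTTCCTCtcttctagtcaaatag
Ctss (chr3:95526726-95526785, plus strand): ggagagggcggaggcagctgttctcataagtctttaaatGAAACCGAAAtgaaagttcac
Aif1 (chr17:35176053-35176222, minus strand): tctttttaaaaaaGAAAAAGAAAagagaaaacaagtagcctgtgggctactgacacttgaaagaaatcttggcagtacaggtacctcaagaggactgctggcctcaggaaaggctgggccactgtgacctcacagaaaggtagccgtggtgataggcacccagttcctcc
Cybb (chrX:9469325-9469504, minus strand): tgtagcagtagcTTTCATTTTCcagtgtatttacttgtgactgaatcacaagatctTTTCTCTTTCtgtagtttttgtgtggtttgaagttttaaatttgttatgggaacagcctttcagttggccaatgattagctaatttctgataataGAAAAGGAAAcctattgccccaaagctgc
Fcgr1 (chr3:96293970-96294089, minus strand): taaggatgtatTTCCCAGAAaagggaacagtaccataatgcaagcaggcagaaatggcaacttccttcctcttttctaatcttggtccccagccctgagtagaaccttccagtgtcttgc

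Part of the macrophage and myeloid set was called higher in the iNICD atria and none of it was called lower. The genes that rose included the pan-leukocyte phosphatase Ptprc, the macrophage receptor Adgre1, the growth factor receptor Csf1r and the Fc receptors Fcgr1 and Fcgr4. Also higher were the adaptor Tyrobp, the C1q chain C1qa, the integrin Itgax and the lysosomal genes Ctss and Mpeg1. Of the 40 genes, 39 reached 1 CPM in at least 6 of the 12 libraries and were tested with limma, and 35 were at 1 CPM or more in every library. At a Benjamini-Hochberg adjusted p under 0.05 over all 14336 genes tested, 13 were higher in iNICD, where the background was 4.87% of genes, and 0 were lower, where it was 1.84%. Unadjusted p was under 0.05 for 19 of the 39, all of them higher. On the recovered reads edgeR called 12 higher (background 4.44%) and DESeq2 16 (background 5.85%), and both called 0 lower (background 2.66% and 4.09%).

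The median log2 fold change of the 39 was 0.31, against 0.05 for all genes tested, and 35 were positive, against 61.3% of all genes. The 4 negative values, none of them called, were those of Lyve1, Lyz1, Cd14 and Cd163. The groups did not overlap for 6 of them, with the iNICD libraries above every control, and this held for 3.46% of all genes. The 6 genes were Ptprc, Adgre1, Fcgr4, Itgax, Mpeg1 and Aif1. No gene of the set had all iNICD libraries below the controls (background 1.13%). In bulk tissue, more cells of a type and more RNA per cell cannot be told apart.

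**Figure D1:**
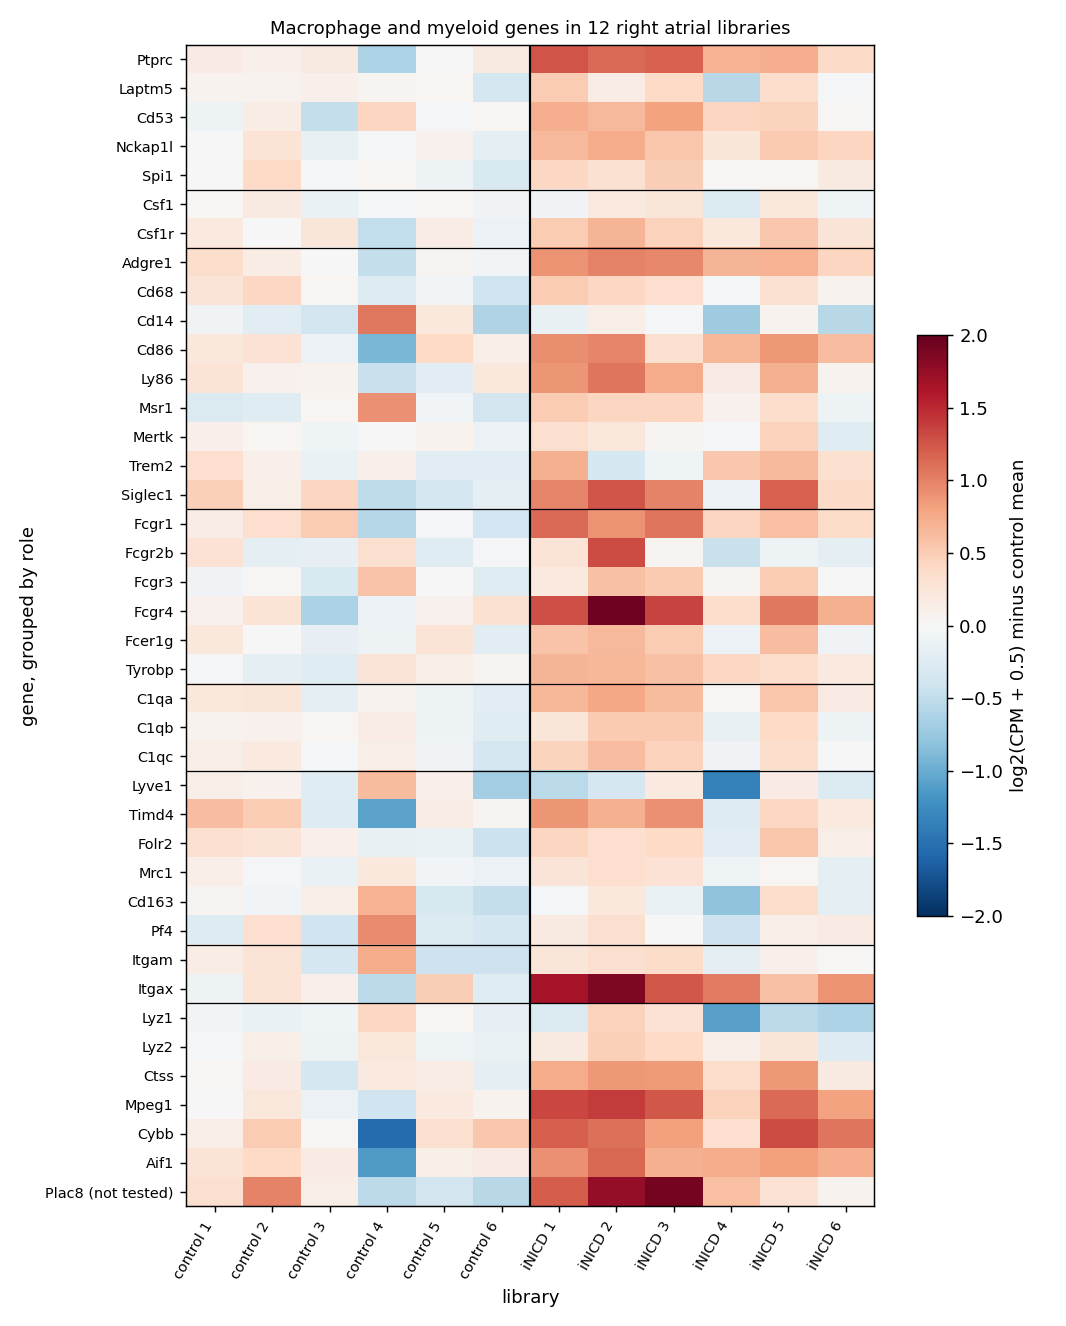
Level of the 40 genes (rows, grouped by role) in the 12 libraries (columns), as log2(CPM + 0.5) minus the mean of the 6 controls, with red above and blue below that mean. Most rows are red in iNICD 1, 2, 3 and 5 and paler in iNICD 4 and 6, and control 4 differs from the other controls in both directions.

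The pan-leukocyte genes were 2 of 5 higher. Ptprc encodes the phosphatase CD45 of all white blood cells (ENSMUSG00000026395, chromosome 1, 138062861 to 138175708, GENCODE M21 on GRCm38, as for all gene positions here). It stood at 23.7, 22.7, 24.1, 13.6, 21.0 and 24.0 CPM in controls 1 to 6 and at 51.5, 46.7, 48.4, 34.4, 35.3 and 27.8 CPM in iNICD 1 to 6. All iNICD libraries were above all controls, and control 4 was the lowest of its group. The means were 21.5 ± 4.04 and 40.7 ± 9.47 CPM (SD, n = 6 each), with a log2 fold change of 0.89 (SE 0.17, limma adjusted p = 0.0043, exact permutation p = 0.0022, the smallest that the relabellings of 6 and 6 libraries give). Nckap1l, a regulator of the actin cytoskeleton in blood cells, ran from 22.2 over a median of 24.7 to 30.3 CPM in controls and from 29.9 over 36.7 to 42.2 CPM in iNICD. The groups overlapped only at iNICD 4, and the log2 fold change was 0.52 (SE 0.10, adjusted p = 0.0036).

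The tetraspanin Cd53 had control values of 5.43 to 10.6 CPM (median 7.80) and iNICD values of 7.86 to 14.0 CPM (median 11.6). Its groups overlapped and its log2 fold change of 0.51 missed the threshold (adjusted p = 0.068). Spi1, the transcription factor PU.1 that sets myeloid identity, was at a median of 6.69 CPM in controls and 8.06 CPM in iNICD (log2 fold change 0.24, adjusted p = 0.36). Laptm5, a lysosomal membrane protein of blood cells, had a log2 fold change of 0.13 (adjusted p = 0.71), and the 13.1 CPM of iNICD 4 was below every control.

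In the growth factor pair the receptor rose, and no change of the ligand passed the test. Csf1r was at 145, 128, 151, 90.3, 142 and 118 CPM in controls 1 to 6 and at 181, 204, 176, 147, 186 and 153 CPM in iNICD 1 to 6. All iNICD libraries but iNICD 4 lay above the highest control. The log2 fold change was 0.44 (SE 0.12, adjusted p = 0.035, exact permutation p = 0.0043). Csf1 ranged from 56.2 to 70.3 CPM in controls (median 61.5) and from 50.7 to 73.6 CPM in iNICD (median 64.9). The iNICD values spread on both sides of the controls, and the log2 fold change was 0.03 (SE 0.10, adjusted p = 0.91). Il34, the other ligand of Csf1r, was at a median of 2.19 CPM in controls and 1.73 CPM in iNICD (log2 fold change -0.28, adjusted p = 0.49).

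Of the 9 macrophage surface and phagocytic receptors, Adgre1 and Cd86 were higher. Adgre1 encodes an adhesion receptor widely used to identify mouse macrophages (ENSMUSG00000004730, chromosome 17, 57358691 to 57483527). It was at 39.4, 34.0, 30.6, 22.0, 31.9 and 29.8 CPM in controls 1 to 6 and at 58.0, 61.9, 60.7, 49.6, 50.5 and 41.6 CPM in iNICD 1 to 6. The lowest iNICD library, iNICD 6, was above the highest control. The means were 31.3 ± 5.70 and 53.7 ± 7.86 CPM (SD, n = 6 each), a log2 fold change of 0.78 (SE 0.13, adjusted p = 0.0014, exact permutation p = 0.0022). Cd86, a costimulatory ligand of antigen-presenting cells, ran from 0.828 to 2.81 CPM in controls (median 2.34) and from 2.63 to 4.43 CPM in iNICD (median 3.78). Only iNICD 3 fell within the control range, and the log2 fold change was 0.73 (SE 0.21, adjusted p = 0.047).

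Siglec1, a sialic acid receptor of macrophages that interferon induces, showed a log2 fold change as large as that of Adgre1 without passing the test. It was at 8.79 to 17.7 CPM in controls (median 12.5) and 11.6 to 30.9 CPM in iNICD (median 25.6), with iNICD 4 and 6 inside the control range (0.78, SE 0.24, adjusted p = 0.079). Ly86, a partner of the Toll-like receptor Cd180, behaved alike, with medians of 3.80 and 6.23 CPM and a log2 fold change of 0.61 (adjusted p = 0.066). The remaining receptors overlapped broadly. Cd68, a lysosomal glycoprotein of phagocytes, had a log2 fold change of 0.27 (adjusted p = 0.33), the scavenger receptor Msr1 0.29 (0.47), the lipid receptor Trem2 0.29 (0.43) and Mertk, which binds dying cells, 0.13 (0.59). Cd14, the lipopolysaccharide co-receptor, had the value -0.21 (adjusted p = 0.72), with 26.9 CPM in control 4 and 8.18 to 14.8 CPM in the other controls.

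**Figure D2:**
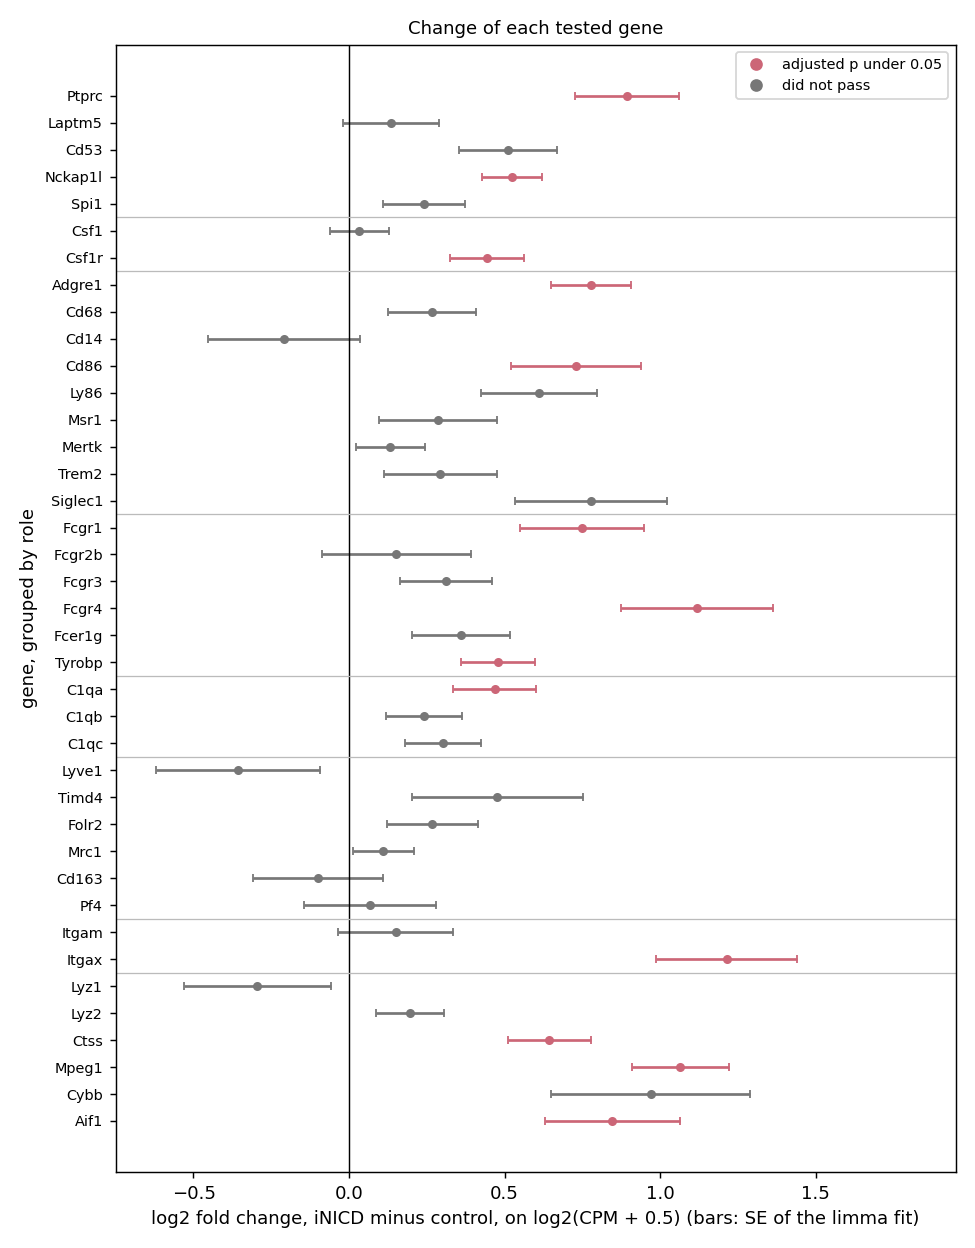
Log2 fold change of each of the 39 tested genes, iNICD minus control on the log2(CPM + 0.5) scale (horizontal axis), with bars of 1 SE from limma and genes grouped by role. The 13 genes with an adjusted p under 0.05 are red and all lie to the right of 0, from 0.44 for Csf1r to 1.21 for Itgax.

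Of the Fc receptors and ITAM adaptors 3 of 6 were called higher, and all 6 log2 fold changes were positive. Fcgr4, an activating receptor of mouse macrophages and monocytes (ENSMUSG00000059089, chromosome 1, 171018920 to 171029761), was at 1.10, 1.33, 0.472, 0.892, 1.09 and 1.36 CPM in controls 1 to 6 and at 3.19, 5.32, 3.35, 1.42, 2.65 and 1.98 CPM in iNICD 1 to 6. The groups did not overlap, although the 1.42 CPM of iNICD 4 was close to the highest control. The log2 fold change was 1.12 (SE 0.24, adjusted p = 0.011, exact permutation p = 0.0022), and Fcgr4 is the gene whose promoter above holds both an ISRE and a PU.1 core. The high-affinity receptor Fcgr1 ran from 2.55 to 5.98 CPM in controls (median 4.22) and from 5.35 to 9.43 CPM in iNICD (median 7.17). The overlap was with iNICD 4 and 6, and the log2 fold change was 0.75 (SE 0.20, adjusted p = 0.033).

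The inhibitory receptor Fcgr2b had medians of 4.23 CPM in controls and 4.50 CPM in iNICD and a log2 fold change of 0.15 (adjusted p = 0.80). Only iNICD 2, at 12.1 CPM, was above all controls. Fcgr3, the low-affinity activating receptor, had medians of 16.3 and 21.4 CPM and a log2 fold change of 0.31 (adjusted p = 0.27). These neighbours share sequence: 9.58% of the 50-base stretches of Fcgr3 and 4.15% of those of Fcgr2b occur in the other, so their reads are uncertain. Tyrobp, the adaptor of Trem2 and other receptors, was at 7.24 to 10.5 CPM in controls (median 8.78) and 9.98 to 14.1 CPM in iNICD (median 12.4), overlapping only at iNICD 6. It rose by 0.48 on the log2 scale (SE 0.12, adjusted p = 0.023), while for Fcer1g, the common chain of the activating Fc receptors, the value was 0.36 (SE 0.16, adjusted p = 0.22). Fcgr2b, Fcgr4, Fcgr3 and Fcer1g lie within 1 stretch of chromosome 1, from 170958617 to 171234365, and of these Fcgr4 was called.

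The 3 chains of C1q, the recognition part of the classical complement pathway, are encoded side by side on chromosome 4 (136880129 to 136898803). C1qa was at 93.0, 94.8, 69.7, 84.0, 74.1 and 68.1 CPM in controls 1 to 6 and at 127, 137, 124, 81.1, 118 and 89.1 CPM in iNICD 1 to 6. iNICD 4 and 6 lay within the control range and the other 4 iNICD libraries above it. The log2 fold change was 0.47 (SE 0.13, adjusted p = 0.047, exact permutation p = 0.019). For C1qb the medians were 59.9 and 72.4 CPM and the log2 fold change 0.24 (adjusted p = 0.31). C1qc had medians of 78.6 and 100.4 CPM and a log2 fold change of 0.30 (adjusted p = 0.18). In both, iNICD 1, 2, 3 and 5 exceeded all controls and iNICD 4 and 6 did not. A different call for C1qa and for its neighbours does not show that the chains differed from each other, which was not tested.

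Of the markers of resident macrophages 0 of 6 were called, a count near the background of 4.87% higher and 1.84% lower, and no difference from the other genes was tested. Timd4, a receptor for phosphatidylserine, was at 11.4, 10.5, 5.98, 3.19, 8.07 and 7.59 CPM in controls 1 to 6 and at 13.8, 12.2, 14.1, 6.00, 9.81 and 8.33 CPM in iNICD 1 to 6. Its log2 fold change was 0.48 with a wide error (SE 0.28, adjusted p = 0.39). The hyaluronan receptor Lyve1, which lymphatic endothelium also carries, ran from 18.7 to 47.8 CPM in controls (median 32.8) and from 11.7 to 35.3 CPM in iNICD (median 24.7). The iNICD values reached lower and the log2 fold change was -0.36 (SE 0.26, adjusted p = 0.53). The haemoglobin scavenger receptor Cd163 had medians of 60.7 and 57.6 CPM (log2 fold change -0.10, SE 0.21, adjusted p = 0.86).

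The mannose receptor Mrc1 had medians of 83.1 and 95.5 CPM (0.11, adjusted p = 0.62) and the folate receptor Folr2 of 20.4 and 26.7 CPM (0.27, adjusted p = 0.36). Pf4, a chemokine shared with platelets, had medians of 15.2 and 20.5 CPM (0.07, adjusted p = 0.92). The median log2 fold change of the 6 resident markers was 0.09, and their summed level was 178 to 303 CPM in controls and 164 to 264 CPM in iNICD. Control 4 held the highest value of the controls for Lyve1, Mrc1, Cd163 and Pf4 and the lowest for Timd4.

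**Figure D3:**
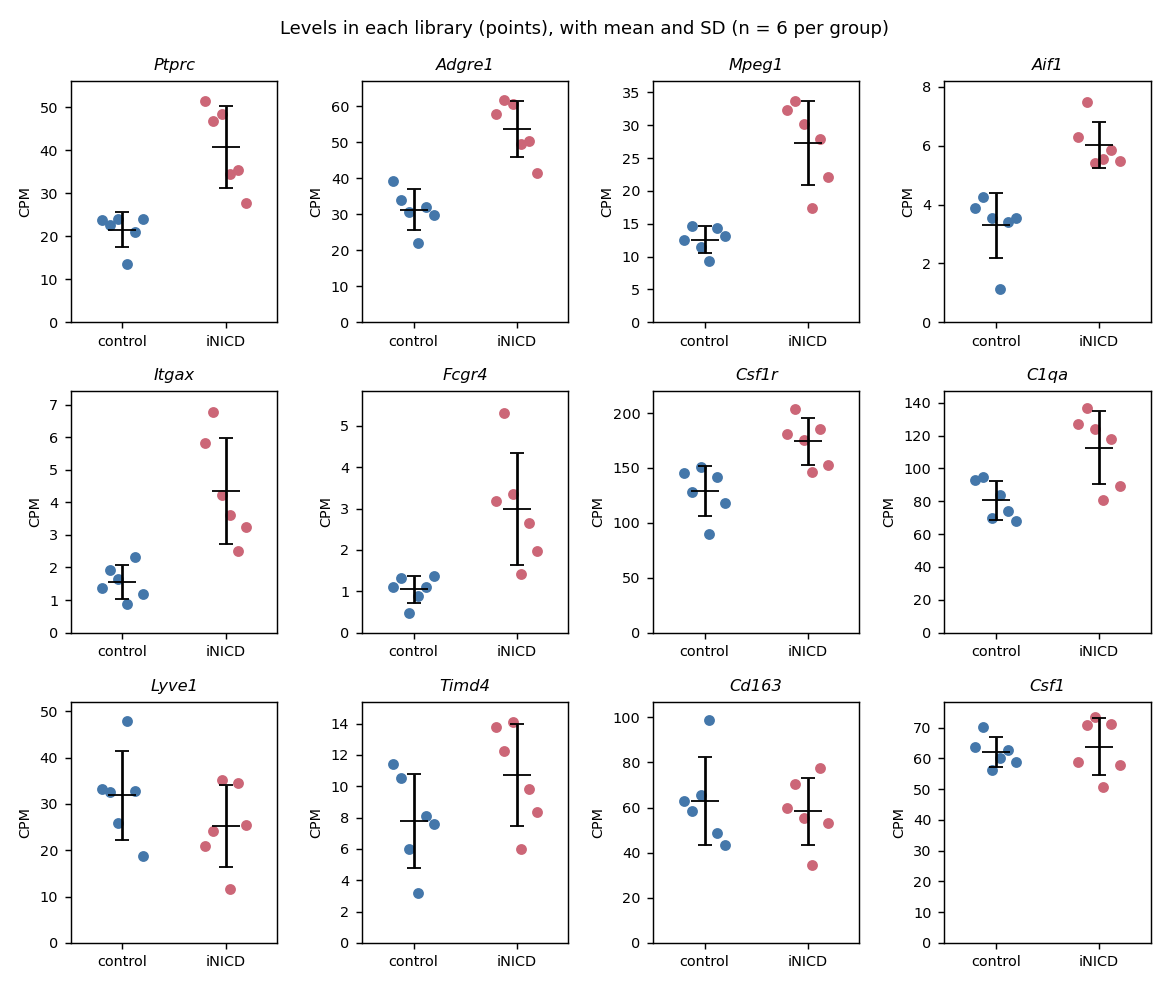
CPM of 12 of the genes in each library (points), with the mean and SD of the 6 controls (blue) and 6 iNICD libraries (red). The groups separate for Ptprc, Adgre1, Mpeg1, Aif1, Itgax and Fcgr4, overlap in part for Csf1r and C1qa, and overlap broadly for Lyve1, Timd4, Cd163 and Csf1.

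The integrin alpha chains Itgam and Itgax are neighbours on chromosome 7. Itgax, which encodes CD11c of dendritic cells and some macrophages (ENSMUSG00000030789, 128129547 to 128150657), was at 1.37, 1.91, 1.65, 0.892, 2.33 and 1.19 CPM in controls 1 to 6 and at 5.82, 6.77, 4.23, 3.61, 2.51 and 3.24 CPM in iNICD 1 to 6. No iNICD library reached down to the controls, and iNICD 5 was nearest to them. The means were 1.56 ± 0.518 and 4.36 ± 1.63 CPM (SD, n = 6 each), with a log2 fold change of 1.21 (SE 0.23, adjusted p = 0.0036, exact permutation p = 0.0022). Of the 50-base stretches of Itgax, 8.02% also occur in Itgad, so part of its reads is uncertain. Itgam, CD11b of most myeloid cells, was at medians of 15.6 and 18.7 CPM, with all iNICD values below the 27.8 CPM of control 4 (log2 fold change 0.15, SE 0.18, adjusted p = 0.74).

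Among the lysosomal, microbicidal and cytoplasmic effectors, Mpeg1, Ctss and Aif1 were higher. Mpeg1 encodes perforin-2 of macrophages, which forms pores in bacteria (ENSMUSG00000046805, chromosome 19, 12460779 to 12465283). It was at 12.6, 14.7, 11.4, 9.37, 14.4 and 13.2 CPM in controls 1 to 6 and at 32.4, 33.8, 30.2, 17.4, 27.9 and 22.1 CPM in iNICD 1 to 6. iNICD 4 was lowest in its group and still above all controls. The means of 12.6 ± 1.99 and 27.3 ± 6.35 CPM (SD, n = 6 each) gave a log2 fold change of 1.07 (SE 0.16, adjusted p = 0.00055, exact permutation p = 0.0022), the smallest adjusted p of the 39 genes.

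Aif1, the calcium-binding protein Iba1 of macrophages and microglia (ENSMUSG00000024397, chromosome 17, 35170991 to 35176068), was at 3.87, 4.24, 3.54, 1.15, 3.42 and 3.56 CPM in controls 1 to 6 and at 6.31, 7.49, 5.43, 5.54, 5.87 and 5.48 CPM in iNICD 1 to 6. The iNICD values were close together and above all controls, among which control 4 was far lower. The log2 fold change was 0.85 (SE 0.22, adjusted p = 0.027, exact permutation p = 0.0022). Ctss, the lysosomal protease cathepsin S of antigen-presenting cells, ran from 31.3 to 45.7 CPM in controls (median 42.5) and from 45.3 to 73.6 CPM in iNICD (median 69.9). Only iNICD 6 fell within the controls, and the log2 fold change was 0.64 (SE 0.13, adjusted p = 0.0084).

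Cybb, the catalytic chain of the phagocyte NADPH oxidase, had one of the larger log2 fold changes, 0.97 (SE 0.32), without passing the test (adjusted p = 0.10, exact permutation p = 0.0065). It was at 5.80 CPM in control 4, 18.2 to 26.3 CPM in the other controls and 22.8 to 44.7 CPM in iNICD, so that iNICD 4 alone lay within the controls. Without control 4 it was among the genes called. Lyz2, the macrophage lysozyme, was the most abundant of the 40 genes, with medians of 171 and 206 CPM (0.20, adjusted p = 0.36). Its neighbour Lyz1 had medians of 1.68 and 1.23 CPM (-0.30, adjusted p = 0.56). The lysozymes share 15.4% of the 50-base stretches of Lyz2 and 16.1% of those of Lyz1, so their separate levels are uncertain. Plac8, a small protein of monocytes and other blood cells, was too low to test, at 0.297 to 1.83 CPM in controls and 0.727 to 3.91 CPM in iNICD.

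Per kilobase of exon, the control levels of the 40 genes spanned from 136 CPM per kb for Lyz2 to 0.324 CPM per kb for Itgax. Lyz2 was followed by C1qa at 77.5, C1qb at 53.4, C1qc at 39.7, Ctss at 29.7, Pf4 at 27.2 and Csf1r at 22.3 CPM per kb. The genes called higher came from both ends of this order, from C1qa and Ctss near the top to Cd86 at 0.578, Fcgr4 at 0.830 and Itgax at the bottom. The median GC content was 45.7% for the called genes, 46.3% for the others tested here and 46.1% for all genes tested. Log2 fold change and GC content had a Spearman rho of -0.18 over the 39 genes and -0.20 over all genes tested, a description across genes.

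The iNICD libraries differed among themselves across the set. For each library the median of the log2 level above the control mean was taken over all 40 genes, with the untested Plac8 included. It was 0.54, 0.65, 0.51, 0.03, 0.45 and 0.10 in iNICD 1 to 6, and between -0.18 and 0.14 in the controls. The number of genes above every control was 29, 31, 27, 10, 26 and 10 of 40 in the same order. iNICD 2 held the highest value of its group for 22 genes and iNICD 4 the lowest for 23. These counts for single libraries were not taken over all genes, so they do not show anything particular to the set. The count of called genes moved with these libraries, as did the count over all genes: without iNICD 1, or without iNICD 2, 7 genes were called higher (background 3.19% and 3.7%) and 0 lower (1.3% and 1.6%), and without control 4, 16 were called higher (background 5.45%) and 0 lower (3.01%). The 7 called in each of the 12 fits that left out 1 library were Ptprc, Nckap1l, Adgre1, Fcgr4, Itgax, Ctss and Mpeg1. Of the others, Aif1 was called in 10 of 12 (lost without iNICD 1 and without iNICD 2), Fcgr1 and Tyrobp in 7, Csf1r in 6, C1qa in 4 and Cd86 in 3.

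Xist, expressed from the inactive X chromosome, divided both groups. Within the libraries with high Xist (4 controls, 3 iNICD) 23 genes were higher (background 6.39%) and 0 lower (2.76%). Within those with low Xist (2 controls, 3 iNICD) 0 were called in either direction (background 0.251% higher and 0.00698% lower), and the count of genes called over all was 36 higher and 1 lower. The median log2 fold change of the 39 genes was 0.52 with high and 0.31 with low Xist. A test of the difference between these 2 effects called 0 of the 39 genes and 0 of 14336 overall (limma interaction, smallest adjusted p among the 39 = 0.90; 6 of the 39 and 775 overall had an unadjusted p under 0.05). Controls 4 and 6 make up the low Xist controls, so control 4 and Xist cannot be told apart there. Ptprc, for example, had a log2 fold change of 1.08 with high and 0.82 with low Xist, and Fcgr4 of 1.58 and 0.61. With log2 Xist as a covariate in all 12 libraries, 16 genes were higher (background 6.83%) and 0 lower (2.11%).

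Leaving out control 3, iNICD 3 and iNICD 5, the libraries rich in Gm42418, left 4 genes higher (background 2.64%), namely Ptprc, Adgre1, Itgax and Mpeg1, and 0 lower (1.01%). The median log2 fold change of the 39 genes was then 0.25. With all libraries kept and the level of Gm42418 and Rn7sk as a covariate, 10 were higher (background 4.73%) and 0 lower (1.58%). The part that these RNAs play in the levels of the 39 genes was not tested beyond these fits.

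**Figure D4:**
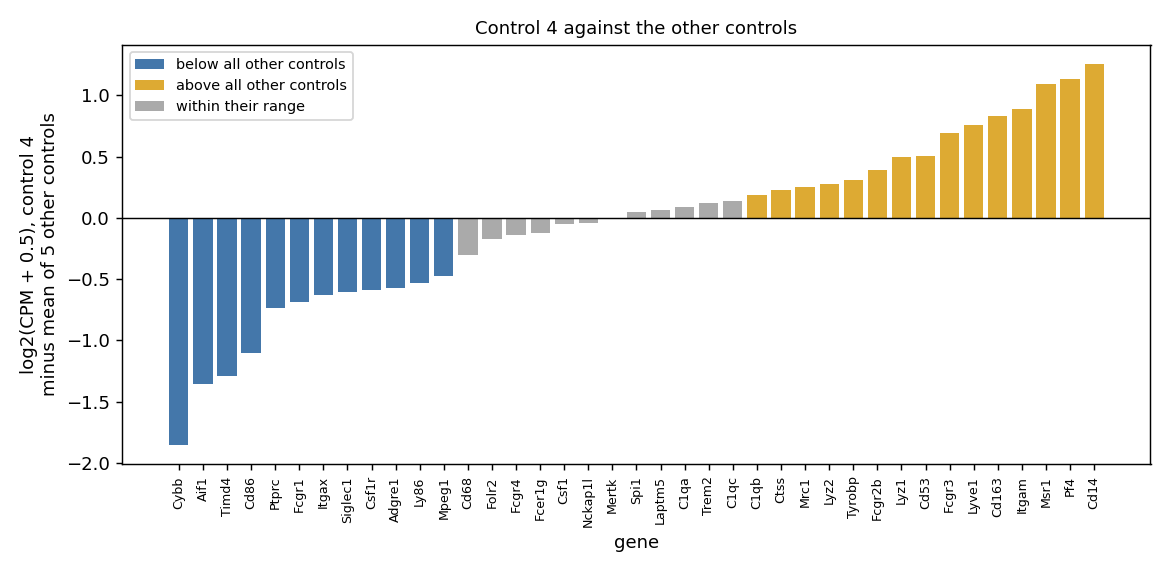
Difference between control 4 and the mean of the other 5 controls in log2(CPM + 0.5) for each of the 39 tested genes. Control 4 was below all other controls for 12 genes, led by Cybb, Aif1, Timd4, Cd86 and Ptprc, and above all for 15, led by Cd14, Pf4, Msr1, Itgam and Cd163.

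Control 4 thus lay apart in both directions for genes of the set. Whether it did so to a like extent over all genes was not counted. Cybb was at 5.80 CPM in control 4 against a mean of 22.4 CPM in the other controls, and Aif1 at 1.15 against 3.73 CPM. In the opposite direction, Pf4 was at 35.7 CPM against 16.4 CPM, Msr1 at 30.1 against 14.0 CPM and Cd163 at 98.7 against 55.8 CPM. Over the 39 genes these differences had a Spearman rho of 0.03 with GC content, a description across genes.

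Around the set, 64 of 73 genes of related myeloid pathways could be tested, and 14 were higher and 1 was lower, beside 4.87% and 1.84% of all genes. The counts for single lists below have the same background. The signalling genes downstream of ITAM and Fc receptors were 7 of 13 higher. Ptpn6, the phosphatase that restrains these receptors, was at 5.61 to 8.24 CPM in controls (median 7.42) and 11.8 to 14.0 CPM in iNICD (median 13.8), without overlap (log2 fold change 0.85, adjusted p = 0.00016). Plcg2, the phospholipase of the pathway, ran from 14.1 to 19.6 CPM and from 25.9 to 31.9 CPM (0.73, adjusted p = 0.00019). The exchange factor Vav1 ran from 3.76 to 6.66 CPM and from 8.39 to 10.6 CPM (0.78, adjusted p = 0.0024). The kinases Syk (0.38) and Lyn (0.28) also rose without overlap, and the linker Blnk rose with overlap (0.71). B cells and other blood cells use several of these genes too.

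Of 9 myeloid transcription factors tested besides Spi1, Ikzf1 (0.77, adjusted p = 0.0093), Irf8 (0.64, 0.026) and Irf5 (0.51, 0.024) were higher. Maf, a factor of differentiated macrophages, had a log2 fold change of 0.25 (adjusted p = 0.33). Of 12 lysosomal enzymes, the protease Lgmn and the lipase Lipa were higher. Lgmn had a median of 169 CPM in controls and 250 CPM in iNICD (log2 fold change 0.58, adjusted p = 2.2e-05). Lipa had a log2 fold change of 0.32 (adjusted p = 0.045) and was called in 4 of the 12 fits that left out 1 library. The 6 tested partners of Cybb in the NADPH oxidase gave 0 calls, with Rac2 at 0.59 (adjusted p = 0.17), Ncf4 at 0.47 (0.20) and Ncf1 at 0.39 (0.084). The CSF receptors with Il34 gave 0 of 6, and 10 complement genes other than C1q gave 0.

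Of 11 monocyte markers 8 could be tested, with 2 higher, 1 lower and the other 5 not called at log2 fold changes of -0.27 to 0.32. Ccr2, the chemokine receptor of classical monocytes, was at 2.80 to 7.31 CPM in controls (median 4.09) and 8.90 to 15.9 CPM in iNICD (median 10.04), and rose by 1.21 on the log2 scale (SE 0.20, adjusted p = 0.0012). Cx3cr1, the fractalkine receptor of monocytes and some resident macrophages, was at 2.17 to 6.21 CPM and 10.3 to 19.7 CPM and rose by 1.53 (SE 0.21, adjusted p = 0.00040). The groups did not overlap for either gene. Nr4a1, a nuclear receptor that patrolling monocytes need and that many stressed cells induce, was lower, at 29.1 to 76.2 CPM in controls and 8.94 to 28.9 CPM in iNICD (-1.14, SE 0.29, adjusted p = 0.036). Leaving out single libraries ended its call in 8 of 12 fits. Ms4a4c, too low to test and picked out after its values were seen, was at 0 to 0.333 CPM in controls and 0.774 to 1.79 CPM in iNICD, without overlap. How often genes this low were without overlap was not counted.

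**Figure D5:**
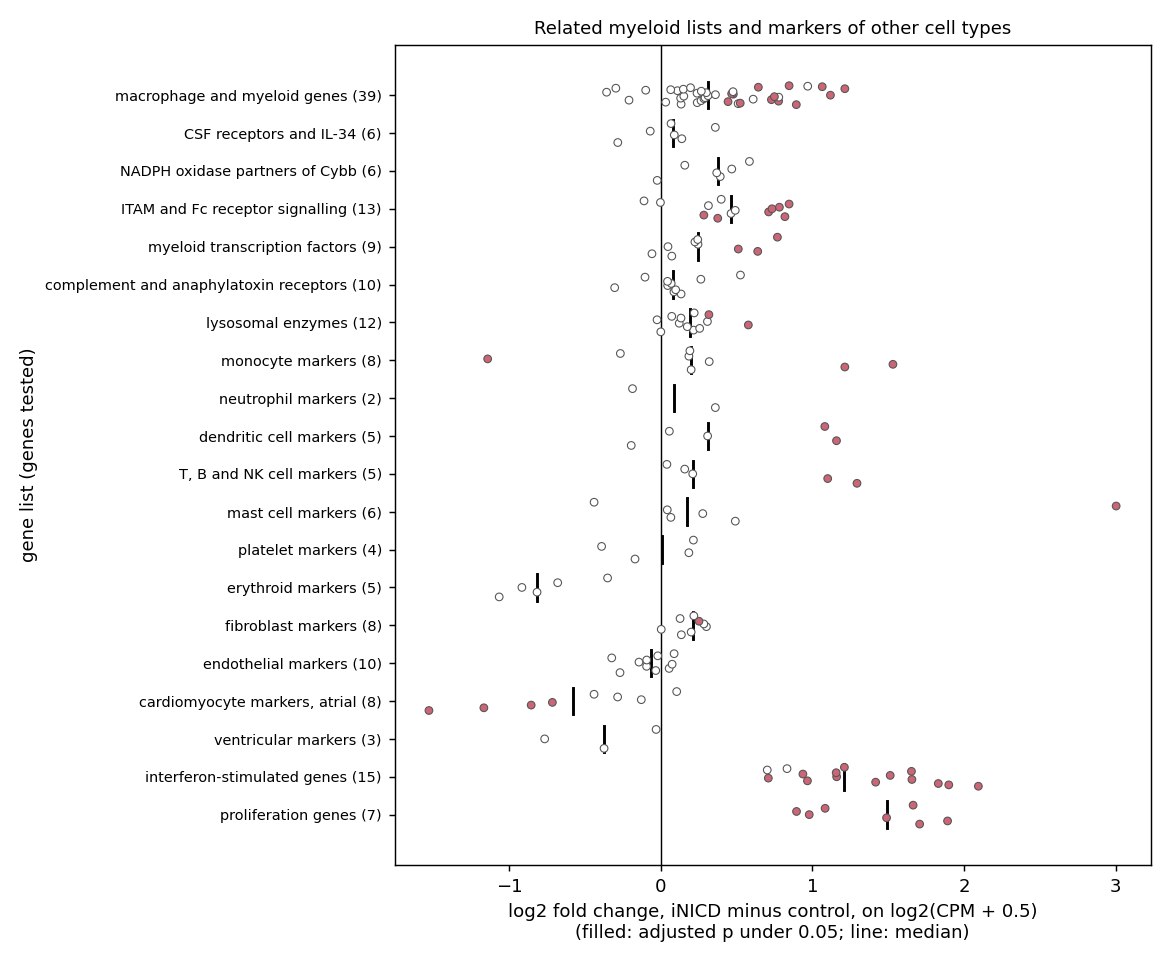
Log2 fold change of each tested gene of the macrophage and myeloid set, of related myeloid lists and of marker lists of other cell types, iNICD minus control on the log2(CPM + 0.5) scale, with filled points for adjusted p under 0.05 and a line at each list's median. The highest medians are those of proliferation genes (1.49) and interferon-stimulated genes (1.21), the lowest are those of erythroid (-0.81) and atrial cardiomyocyte markers (-0.58), and the single point furthest right is Mcpt4.

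Markers of other cells were measured beside the set. Of 10 dendritic cell markers 5 could be tested and 2 were higher, Xcr1 (1.16) and Itgae (1.08). The list's summed level was 35.1 to 42.8 CPM in controls and 33.9 to 52.9 CPM in iNICD. Xcr1 reached 1 CPM in 1 control and 5 iNICD libraries, and Itgae was called in 3 of the 12 fits that left out 1 library. Of 15 T, B and NK cell markers 5 could be tested and 2 were higher, Trac (1.29) and Lck (1.10). The list's sum was 6.24 to 17.2 CPM and 14.8 to 24.5 CPM. Trac reached 1 CPM in 3 controls and 6 iNICD libraries, and Lck in 2 and 6. Of 12 neutrophil markers 10 were too low to test, 8 of them under 1 CPM in every library, and the other 2 were not called (5.16 to 12.7 CPM and 7.28 to 10.7 CPM in sum). Among the untested ones Ltf, also picked out after its values were seen, was at 0 to 0.333 CPM in controls and 0.838 to 2.25 CPM in iNICD, without overlap. The groups overlapped for every other untested neutrophil marker. For genes too low to test, the share without overlap was not counted. Mast cell markers were 1 of 6 higher, Mcpt4 (3.00), with means of 2.42 CPM in controls and 23.6 CPM in iNICD. Not called were Cpa3 (0.49), Tpsb2 (0.28), Kit (0.07), Cma1 (0.04) and Hdc (-0.44). The list's sums of 15.6 to 29.5 CPM and 27.5 to 60.1 CPM include Mcpt4. Platelet markers (0 of 4), erythroid markers (0 of 5) and endothelial markers (0 of 10) gave no call. Neither did ventricular markers (0 of 3) or the markers of RNA quality and depth (0 of 4). Of 8 fibroblast markers 1, Tcf21 (0.25), was higher, and it was called in 1 of the 12 fits that left out 1 library. No marker of these lists was at 0 in all libraries. The part of other cell types in the levels of shared genes such as Itgax, Cd86, Pf4 and Lyve1 was not tested.

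Interferon-stimulated genes were 13 of 15 higher. Their median log2 fold change was 1.21, and their sums were 61.3 to 136 CPM in controls and 158 to 297 CPM in iNICD. Of these, Isg15 was at 0.752 to 2.08 CPM in controls and 6.00 to 11.2 CPM in iNICD. Of 10 proliferation genes 3 were too low to test and the other 7 were higher, with a median of 1.49. The sums of the 10 were 9.79 to 19.1 CPM in controls and 27.1 to 96.2 CPM in iNICD. Cdk1 reached 1 CPM in 0 controls and 6 iNICD libraries, and Ccnb2 and Birc5 in 1 control and 6 iNICD libraries each. Such genes entered the test through their iNICD levels, so the count and the median depend in part on the filter. Atrial cardiomyocyte markers were 4 of 8 lower, namely Nppa (-1.53), Myl7 (-1.165), Myl4 (-0.85) and Sln (-0.71). The sum of the 8 was 78047 to 82289 CPM in controls and 59546 to 67552 CPM in iNICD. CPM are shares of a total, so such a fall raises the share of other RNAs. Under median-of-ratios, TMM and quantile scaling, which lower the median log2 fold change of all genes from 0.05 to between -0.02 and -0.01, 12, 12 and 11 of the macrophage and myeloid genes were called higher (background 4.3%, 4.32% and 4.2%) and 0 lower (2.68%, 2.69% and 2.84%). The part of the cardiomyocyte RNA in the levels of the set was not tested beyond these scalings.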

How the data were processed

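The CPM were deposited by the authors, 1 column for each of 12 libraries, per the submitters' processing notes with STAR 2.4.0b and featureCounts. The build, annotation, strandedness and treatment of multiply aligned reads were not given in the sources used here. Overlapping, antisense and near-identical genes may therefore share reads. The GC percent of each gene was deposited by the authors in the same table. The table's 41264 rows held 40690 identifiers, and 574 repeats were used once. Every value was a whole multiple of the smallest within 0.001 reads for 100% of values, so whole reads were recovered. Libraries of a group differed beyond counting noise (chi-square per degree of freedom 8.47 to 79.9; Pearson r of log2 values 0.988 to 0.996).

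CPM are not counts, so limma 3.58.1 (trend, robust) was run on log2(CPM + 0.5), keeping the 14336 genes that reached 1 CPM in 6 or more libraries (26354 did not), Benjamini-Hochberg adjustment over them, a threshold of 0.05 and no replicate block. This scale understates changes of low genes. Adjusted p-values are from this fit unless another is named, and errors are SE of the fit or SD. An exact permutation test (two-sided) was added for single genes. The macrophage and myeloid genes and the other lists were chosen with earlier results of these data known. All 40 are accounted for; values of every library are given for called genes whose groups did not overlap and at least 1 gene per role, and from other lists called genes in order of adjusted p, with further genes of the related lists chosen after their values were seen. Some genes of the related lists are not reported here by name.

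Alternatives were pseudocounts of 0.1 and 2, no filter or a mean of 5 CPM, array weights, scaling by quantiles, TMM or median of ratios, a replicate block, non-robust limma, covariates (Xist; Gm42418 and Rn7sk), libraries left out, thresholds of 0.01 and 0.1, and edgeR 4.0.16 and DESeq2 1.42.0 on the recovered reads. Leaving out control 4 with a further change, and the Xist interaction, were chosen after seeing the data. Tests were tried on simulated reads, where limma and edgeR kept false calls near their threshold and DESeq2 exceeded it, so its counts may be too high. Positions and exon lengths are from GENCODE M21 (GRCm38), promoters from RefSeq. R 4.3.3 and Python 3.11.15 were used.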

Additional observations from a re-analysis of the deposited data

Results flagged for a closer look

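In 9 of 154 sets of 6 values (77 genes in 2 groups), 1 library lay far from the rest by Dixon's criterion, which chance exceeds in about 1 of 20 sets. In 7 of the 9 that library was control 4. It was lowest for Ptprc (13.6 CPM), Aif1 (1.15 CPM) and the monocyte marker Cx3cr1 (2.17 CPM), and highest for Cd14 (26.9 CPM), Msr1 (30.1 CPM), Fcgr3 (24.9 CPM) and Lyz1 (2.55 CPM). Control 6 was lowest for Laptm5 (15.2 CPM), and iNICD 2 was highest for Fcgr2b (12.1 CPM).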

How the results depend on the processing

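The 13 macrophage and myeloid genes called higher became 10 to 16 under the scalings, filters, weights, covariates and tools tried, except 9 with a mean of at least 5 CPM (33 of the genes tested), and 7 to 16 when 1 library was left out. They were 4 without control 3, iNICD 3 and iNICD 5 (the libraries rich in Gm42418), 23 with high Xist alone, 0 with low Xist alone (5 libraries), 23 without control 4 and with the Xist covariate, 6 without control 4 and the rich libraries, and 6 at an adjusted p under 0.01. None was called lower in any setting. The replicate numbers share only a number: deviations of same-numbered libraries correlated at -0.01 to 0.33 and 3 of 6 numbers correlated best with their own number. With the replicate block 15 genes were higher, without Tyrobp and with Cybb, Ly86 and Siglec1. Over all genes 698 were higher and 264 lower. Higher counts were 378 without the rich libraries, 36 with low Xist, 314 at 0.01 and 458 to 782 with 1 library left out. Lower counts were 407 with quantile scaling, 552 with array weights, 145 without the rich libraries, 1 with low Xist, 587 with DESeq2, 451 without control 4 and with the Xist covariate, 115 at 0.01, 401 at 0.1 and 186 to 432 with 1 library left out. The 14 related genes called higher were 8 without the rich libraries, 0 with low Xist, 24 without control 4 and with the Xist covariate, 9 without control 4 and the rich libraries, 8 at 0.01 and 8 to 15 with 1 library left out. The 1 related gene called lower, Nr4a1, was 0 without a filter, without the rich libraries, with high or low Xist alone, in both fits without control 4 and a further change, and at 0.01, and 0 to 1 with 1 library left out. Log2 fold changes that turned belonged to genes not called. Csf1 was -0.02 under median-of-ratios and TMM, -0.01 under quantile scaling, edgeR and DESeq2 and without iNICD 3, -0.09 without the rich libraries, -0.11 without those and control 4, and between -0.01 and 0 without iNICD 5 and with low Xist. With low Xist alone Msr1 was -0.16, Mrc1 -0.12, Itgam -0.18, Fcgr2b -0.39, Pf4 -0.34, and Lyz2 between -0.01 and 0. With high Xist alone Cd14 was 0.09, Cd163 0.07 and Lyz1 0.22. Without 1 library, Cd14 ranged from -0.33 to 0.00 (without control 4), Fcgr2b from -0.08 (without iNICD 2) to 0.27, Cd163 from -0.20 to 0.04 (without control 4 or iNICD 4) and Pf4 from -0.01 to 0.25. Without control 4, Cd14 and Cd163 were both 0.13 with the Xist covariate. Cd163 was also 0.01 with array weights and 0.00 without control 4 and the rich libraries. Pf4 was -0.01 without the rich libraries or control 3, between -0.01 and 0 without control 6, -0.08 with edgeR and -0.09 with DESeq2. The causes of these shifts were not tested. Depth limits the genes near 1 CPM, such as Fcgr4, Itgax, Cd86 and Lyz1.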
